A study of Mus musculus with 2 samples.

Results

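Cathepsins are the proteases of the lysosome, and cystatins are proteins that bind and block one class of them. The transcripts of 8 cathepsins (Ctsa, Ctsb, Ctsc, Ctsd, Ctsh, Ctsl, Ctss and Ctsz) and of 2 cystatins (Cst3 and Cstb) were measured in single microglia of PARK7/DJ-1 knock-out (KO) and wild type (WT) mice after systemic inflammation. These 10 genes, chosen by name, are 10 of the 19537 genes in the count tables. The cells considered were barcodes with at least 500 unique molecular identifiers (UMIs, each marking 1 transcript molecule) and at least 100 genes.

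Microglia take up cell debris and proteins and break them down in lysosomes, where cathepsins are active at acid pH. Most cathepsins are cysteine proteases, whereas cathepsin D cuts with aspartic acid residues and cathepsin A with a serine. Cystatins bind cysteine cathepsins that have left the lysosome, outside the cell in the case of cystatin C (encoded by Cst3) and in the cytosol in the case of stefin B (encoded by Cstb), and they do not block cathepsin D.

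Sorted CD11b+CD45int cells from the brain were captured by Drop-seq, which uses barcoded beads in droplets to bind the 3' ends of the transcripts of single cells. The KO LPS group (KO below) carried the Park7 gene-trap allele Gt(XE726)Byg on a C57BL/6NCrl background, and the WT LPS group (WT below) were their wildtype littermates. All mice were 3 to 4 months old and had received a single intraperitoneal dose of lipopolysaccharide (LPS, a component of bacterial walls) of 4 μg per g body weight 24 h earlier. Each genotype was represented by 1 library, which pooled cells of 2 mice, 1 female and 1 male. No library of untreated mice was used here. With 1 library per genotype there is no test between genotypes, genotype and library cannot be told apart, and every interval below (95%) covers counting error only.

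The KO library gave 320 cells with 381305 UMIs, and the WT library gave 1427 cells with 1989011 UMIs. The median cell held 963.5 and 1065 UMIs respectively, and the libraries shared 0 cell barcodes. Park7 itself was counted with 1 UMI in KO and 323 in WT. All 11 microglial markers were detected in both libraries, at a summed level of 35646 UMIs per 1e6 UMIs of the cells (CPM) in KO and 25903 CPM in WT. The libraries stood apart in further ways that move with the results below. Summed over a list of 25 inflammatory genes, the level was 868 CPM in KO and 14015 CPM in WT, and 8 of these genes, among them Saa3, Lcn2 and Cxcl10, were at 0 in KO although both libraries are labelled LPS. Cells with a UMI of a Y-linked gene and none of Xist numbered 12 in KO and 195 in WT, and cells with the reverse numbered 200 and 565. Choroid plexus markers summed to 1901 CPM in KO and 11.6 CPM in WT, with Clic6 at 0 in KO and Kl and Otx2 at 0 in WT. Astrocyte markers summed to 417 and 188 CPM, with Aqp4 at 0 in both, and endothelial markers to 94.4 and 17.6 CPM. Neutrophil markers were all at 0 in KO and summed to 68.4 CPM in WT, and the homeostatic microglial list summed to 34531 and 16378 CPM. The part of these differences in the results was not tested.

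Most cysteine cathepsins were lower in KO than in WT, while the aspartic protease Ctsd and the inhibitor Cst3 were higher. Of the 10 genes, 1 (Ctsd) was at least 2-fold higher in KO, against 13.5% of the 9085 genes that had 20 or more UMIs in all. At least 2-fold lower were 4 (Ctsc, Ctsl, Ctsz and Cstb), against 15.3% of all genes. Of these, Ctsz had a log2 ratio of -0.89 without a minimum of UMIs, and Cstb one of -0.77 (-1.77 to 0.11) in cells thinned to 500 UMIs and -0.59 (-1.72 to 0.40) in cells with fewer than 1000 UMIs, where its interval held 0. By counting intervals of the ratio of levels, 2 were higher, against 19.6% of all genes, 7 were lower, against 18.7%, and the interval of Ctsa held 1. Such intervals are narrow for abundant genes, which most of the 10 are. The median log2 ratio of KO over WT was -0.63 over the 10 genes and 0.03 over all genes. Scaling by the trimmed mean of log ratios (TMM) instead of total UMIs shifts every log2 ratio down by 0.22. On that scale the direction of each of the 10 genes was the same and the interval of Ctsa no longer held 1.

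**Figure D1:**
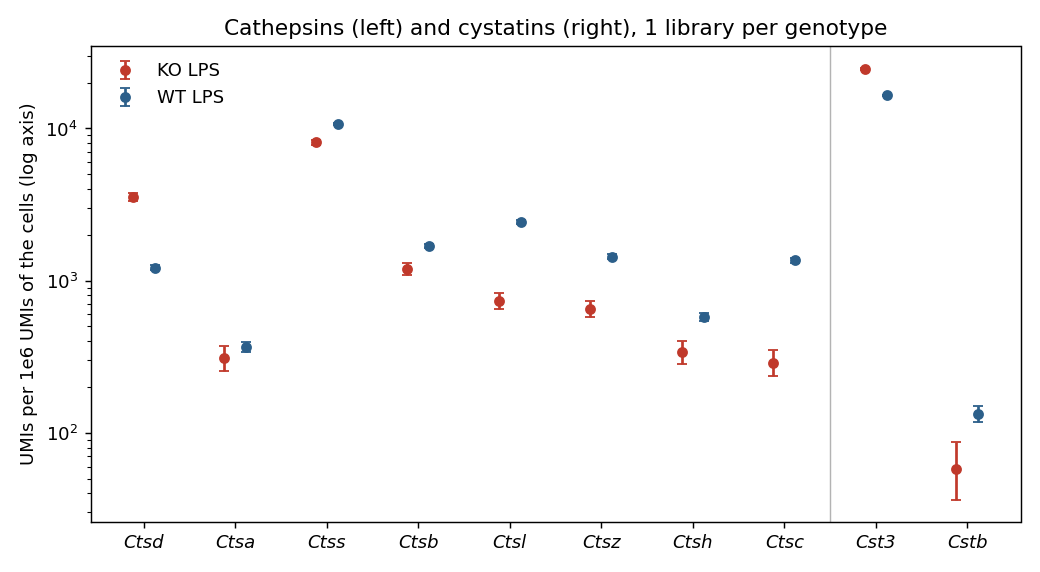
Level of each cathepsin (left of the line) and cystatin (right) in KO (red) and WT (blue), in UMIs per 1e6 UMIs of the cells on a log axis; points are the 1 library of each genotype and bars are 95% Poisson intervals. Ctsd (3546 against 1220 CPM) and Cst3 (24629 against 16485 CPM) are the genes with the higher point in KO.

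Ctsd, which encodes the main aspartic endopeptidase of lysosomes, had 3546 CPM (3359 to 3740) in KO and 1220 CPM (1172 to 1269) in WT. The level in KO was 2.91 times that in WT (2.72 to 3.11). It was the gene with the 11th highest level in KO and the 58th in WT, and its log2 ratio lay at percentile 95.0 of all genes tested. The gene lies on chromosome 7 (GRCm39, 141929646 to 141941775, minus strand). The predicted gene Gm49369 overlaps it on the same strand, so the count of Ctsd may depend on how reads in the overlap were assigned.

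Ctsa encodes a serine carboxypeptidase that also protects the lysosomal enzymes Glb1 and Neu1 from breakdown. Its level was 309 CPM (256 to 371) in KO and 368 CPM (342 to 396) in WT, a ratio of 0.841 whose interval (0.686 to 1.02) held 1. The counts were 118 and 732 UMIs. In cells of at least 1000 UMIs the log2 ratio was -0.36 (-0.73 to -0.013), so whether the interval holds 1 turned with the choice of cells and of scaling.

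Ctss was the most abundant cathepsin in both libraries, and encodes a cysteine endopeptidase that stays active at neutral pH and trims the invariant chain of MHC class II. The level was 8088 CPM (7805 to 8379) in KO and 10636 CPM (10493 to 10780) in WT, a ratio of 0.760 (0.732 to 0.790). Ctss ranked 4th of all genes in both libraries and was the lower cathepsin with the smallest relative difference apart from Ctsa. Ctsb, a cysteine protease that works both as an endopeptidase and as a carboxypeptidase, had 1193 CPM (1086 to 1308) in KO and 1688 CPM (1631 to 1746) in WT. Its ratio was 0.707 (0.640 to 0.780).

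Ctsl encodes a broad endopeptidase of late endosomes and lysosomes. It had 734 CPM (651 to 826) in KO and 2418 CPM (2350 to 2487) in WT. The level in WT was 3.29 times that in KO (2.92 to 3.73), and in rank Ctsl stood 141st of all genes in KO and 21st in WT. Ctsl was the cathepsin with the second highest level in WT and lay below Ctss, Ctsd and Ctsb in KO.

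Ctsc was the gene with the largest relative difference of the 10. It encodes dipeptidyl peptidase 1, which removes dipeptides from the ends of proteins and activates granule serine proteases of leukocytes. There were 110 UMIs in KO and 2705 in WT, or 288 CPM (237 to 348) and 1360 CPM (1309 to 1412), so that the level in WT was 4.71 times that in KO (3.90 to 5.76). This log2 ratio of -2.24 lay at percentile 3.43 of all genes tested.

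Ctsz and Ctsh encode cysteine proteases that trim proteins from their ends, Ctsz as a carboxypeptidase and Ctsh mainly as an aminopeptidase. Ctsz had 653 CPM (574 to 739) in KO and 1433 CPM (1381 to 1487) in WT, a ratio of 0.456 (0.399 to 0.519). Ctsh had 338 CPM (282 to 402) and 576 CPM (543 to 610), a ratio of 0.588 (0.486 to 0.706). All 6 cysteine cathepsins therefore had a lower level in KO, with the ratio nearest to 1 for the most abundant of them. The 3' ends of Ctsa, Ctsb and Ctsz lie within genes on the opposite strand (Pltp, Fdft1 and Nelfcd). Those genes had between 1 and 27 UMIs in either library, far fewer than the cathepsins. The use of strand in the counting is not given, so these counts cannot show whether reads in the overlaps were left out.

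Cst3 encodes cystatin C, the secreted inhibitor that makes up almost all cystatin transcripts here. It ranked 3rd of all genes in both libraries, at 24629 CPM (24133 to 25132) in KO and 16485 CPM (16307 to 16664) in WT. The ratio was 1.49 (1.46 to 1.53). Cstb, which encodes the cytosolic stefin B, was rare and went the other way, with 22 UMIs in KO and 266 in WT. Its levels were 57.7 CPM (36.2 to 87.4) and 134 CPM (118 to 151), a ratio of 0.431 (0.266 to 0.667). Cst3 is also a gene of astrocytes and choroid plexus, whose markers were higher in KO. Without the 15 KO and 34 WT cells that held at least 3 UMIs of markers of any other cell type, the log2 ratio of the summed cystatins was 0.59, against 0.57 in all cells. This leaves free RNA of those cell types in the other droplets, and its part in the level of Cst3 was not tested.

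For 7 of the 10 genes (none for Ctsb, Ctsh and Cstb), RefSeq promoter windows were searched on both strands for 5 motifs over the 250 bases before each listed start. The motif CACGTG, the core of the CLEAR element known from promoters of lysosomal genes, occurs in 6.02% of all 32851 windows of that length. Ctsd had 2 matches, and Ctsl had 1, so the members with the highest and the second lowest log2 ratio both held it. Ctsa had 1 match before its second listed start. The full CLEAR element, which contains it, was in 0.24% of windows and an NF-kB motif in 1.21%, and neither was in those of members. The interferon-stimulated response element was in 2.98% of windows and matched in Ctss. A PU.1 motif (GAGGAAGT) was in 2.44% and matched in Ctsc. Cst3 and Ctsz held none of the 5. These are matches of letters and no sites of binding, and by their letters all but 1 of the 8 windows overlap exons in the GENCODE vM39 annotation of GRCm39. The matches of the 4 genes that differed in direction or size are shown as 30 bases each, from 5′ to 3′ on the strand of the gene, with the motif in capitals (RefSeq, GRCm38.p6).
Ctsd, chr7:142388048-142388077, minus strand, 245 bases before the start: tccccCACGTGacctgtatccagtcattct
Ctsd, chr7:142387908-142387937, minus strand, 98 bases before the start: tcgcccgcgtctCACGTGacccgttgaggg
Ctsl, chr13:64370739-64370768, minus strand, 236 bases before the start: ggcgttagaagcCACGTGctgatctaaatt
Ctsc, chr7:88277923-88277952, plus strand, 151 bases before the start: gtcactaactaACTTCCTCaggccacctcg
Ctss, chr3:95526755-95526784, plus strand, 21 bases before the start: gtctttaaatGAAACCGAAAtgaaagttca
The capitals in Ctsc are the PU.1 motif read on the other strand.

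The make-up of the cathepsin pool differed between the libraries although its largest part did not. Ctss accounted for 53.4% of cathepsin UMIs in KO (52.1 to 54.7, exact Clopper-Pearson) and for 54.0% in WT (53.5 to 54.5). Ctsd took 23.4% in KO (22.3 to 24.5) and 6.19% in WT (5.96 to 6.44). Conversely, Ctsl took 4.85% and 12.3%, and Ctsc 1.90% and 6.90%. There were 0.207 UMIs of Ctsl for each UMI of Ctsd in KO and 1.98 in WT, a 9.57-fold difference (8.34 to 10.98) that does not depend on the scaling of the libraries.

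**Figure D2:**
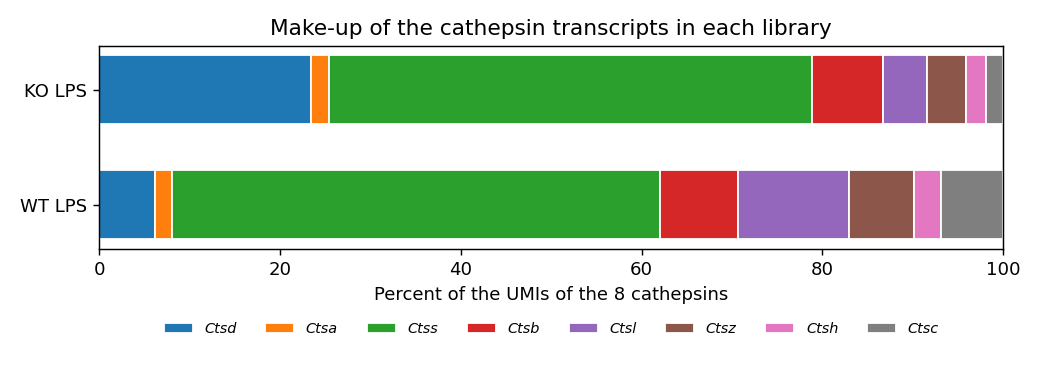
Share of each cathepsin in the summed UMIs of the 8 cathepsins, in percent, for KO (upper bar) and WT (lower bar). Ctss holds a like share in both (53.4% and 54.0%), whereas Ctsd is wider in KO (23.4% against 6.19%) and Ctsl and Ctsc are wider in WT.

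Weighed against their inhibitors, cathepsin transcripts were fewer in KO. The 8 cathepsins summed to 15151 CPM (14762 to 15546) in KO and 19698 CPM (19504 to 19894) in WT, and the cystatins to 24686 CPM (24190 to 25190) and 16619 CPM (16440 to 16799). There were 0.614 cathepsin UMIs per cystatin UMI in KO (0.594 to 0.634) and 1.19 in WT (1.17 to 1.20), so cystatins outnumbered cathepsins in KO and the reverse held in WT. The ratio in WT was 1.93 times that in KO (1.86 to 2.00). For the 6 cysteine cathepsins, the class that cystatins block, it was 0.458 in KO and 1.09 in WT, a 2.38-fold difference (2.29 to 2.48). Leaving out Ctss as well, it was 0.130 and 0.450, a 3.46-fold difference (3.25 to 3.69).

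Against Cstb alone the picture was not the same. There were 196 UMIs of cysteine cathepsins per UMI of Cstb in KO (129 to 298) and 135 in WT (120 to 153), and the interval of the ratio of these values (1.45, 0.935 to 2.24) held 1. The lower ratio in KO is thus that of cathepsins to Cst3, and each of the cysteine cathepsins taken singly was lower relative to Cst3. Ctsd was the exception among the 8, with 0.144 UMIs per UMI of Cst3 in KO and 0.0740 in WT.

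The balance was also counted cell by cell and set beside free RNA, that is RNA outside cells that any droplet can take up. Each cell was thinned to 500 UMIs, so that cells of different depth could be compared. Of KO cells, 77 of 320 (24.1%, 19.5 to 29.1) had more cathepsin than cystatin UMIs, and of WT cells 881 of 1427 (61.7%, 59.2 to 64.3). Droplets of 500 UMIs filled only from the profile of barcodes with 100 UMIs or fewer would give 28.5% in KO and 84.2% in WT. The interval in KO held its background, the share in WT lay below its own, and free RNA alone would show a difference in the same direction. The median KO cell held 7 cathepsin and 11 cystatin UMIs of 500, and the median WT cell 9 and 8. Cystatin UMIs varied more between cells than counting alone gives, with a variance 4.32 times the mean in KO and 3.31 times in WT, and cathepsin UMIs less so (1.79 and 2.22 times).

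The share of cells with a UMI of a gene was read against free RNA as well. No cell type that should lack these genes was sorted, so the background was the share of droplets with a UMI if all their 500 UMIs came from the profile of barcodes with 100 UMIs or fewer. Ctsl was found in 27.8% of KO cells (23.0 to 33.1; background 20.5%) and in 61.0% of WT cells (58.5 to 63.6; background 34.1%). Ctsc was found in 13.4% of KO cells (background 11.2%) and 45.4% of WT cells (background 34.1%). Ctsl was thus above free RNA in both libraries and Ctsc in WT, while the interval of Ctsc in KO (9.90 to 17.7) held its background.

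Ctsd was found in 78.8% of KO cells (73.9 to 83.1), below the background of 82.5%, and in 42.7% of WT cells (40.2 to 45.4; background 31.8%). Its share in KO is therefore not read as expression by that share of cells, and the same holds there for Ctsa, Ctsb, Ctss and Cst3. The intervals of Ctsz (22.7 to 32.7; background 22.8%) and Cstb (1.73 to 6.07; background 1.75%) in KO also held their backgrounds. In WT only Ctss was below its background, with 95.9% against 98.2%. In the free RNA of KO, the genes were at between 0.611 (Cstb) and 1.25 times (Ctsa) their level in cells. Ctsd had 3482 CPM in barcodes with 100 UMIs or fewer, 0.982 times its level in cells. In WT the range was 0.284 (Cstb) to 0.754 times (Ctss), and Ctsd was at 766 CPM and 0.628 times. For Cst3, free RNA was at 0.698 times the level in cells in KO and 0.340 times in WT.

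The direction of the difference was the same in free RNA and in cells for Ctsd, Cst3, Ctss, Ctsc, Ctsl and Ctsz, and the opposite for Ctsb, while the intervals of Ctsh and Cstb in free RNA held 1. In barcodes with 100 UMIs or fewer, KO was higher than WT for Ctsb, with 1208 against 903 CPM (ratio 1.34, 1.12 to 1.59), and for Ctsa, with 387 against 193 CPM (ratio 2.01, 1.41 to 2.85). The summed cathepsins were likewise slightly higher in KO in these barcodes, with 13783 against 12624 CPM (ratio 1.09, 1.04 to 1.15), whereas in cells they were lower (0.769, 0.748 to 0.791). The summed cystatins were higher in KO in both, with 17230 against 5644 CPM in these barcodes (ratio 3.05, 2.88 to 3.23). The lower level of Ctsb and of the summed cathepsins in KO holds for cells and not for the RNA around them.

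**Figure D3:**
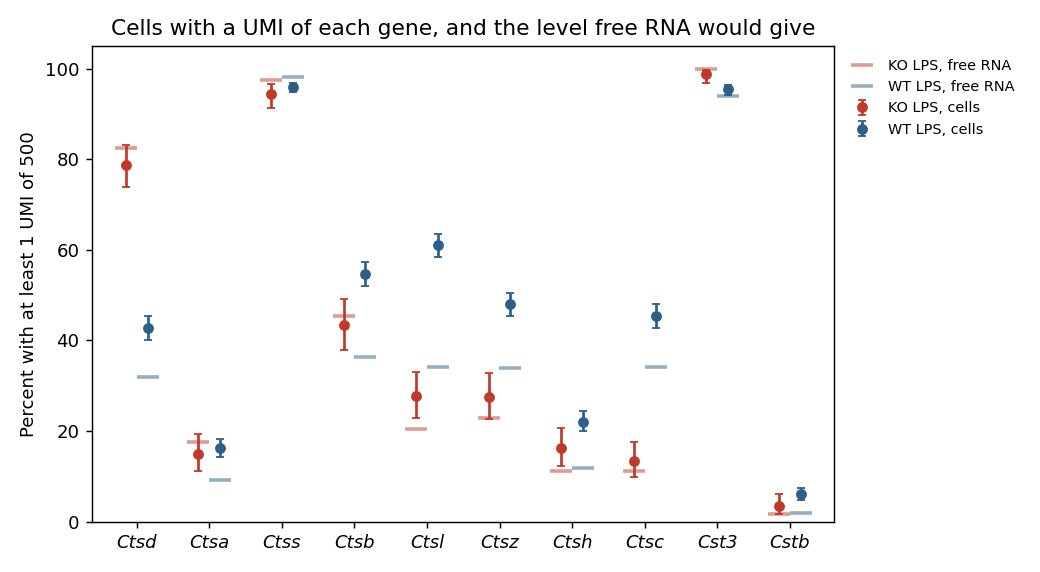
Percent of cells with at least 1 UMI of each gene after thinning to 500 UMIs (points, with 95% Clopper-Pearson bars) and the percent that free RNA alone would give (short lines), for KO (red) and WT (blue). In WT the point of each gene but Ctss lies above its line, while in KO those of Ctsd, Ctsa, Ctss, Ctsb and Cst3 lie at or below it.

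The mice of a library were of both sexes, and the libraries differed in the share of cells with Y-linked transcripts, so the genes were also compared within cells of 1 kind. In the 200 KO and 565 WT cells with Xist and no Y-linked UMI, the log2 ratio was 1.72 for Ctsd, -2.07 for Ctsc, -1.83 for Ctsl and 0.55 for Cst3, near the values over all cells (1.54, -2.24, -1.72 and 0.58). In the 12 KO and 195 WT cells with a Y-linked UMI and no Xist, it was 1.51 for Ctsd, -1.44 for Ctsc and 0.92 for Cst3, with intervals that did not hold 0. The intervals of 3 genes that were lower over all cells held 0 there, Ctsl at -0.45 (-1.14 to 0.16), Ctsb at -0.14 (-0.87 to 0.50) and Ctsh at -0.61 (-2.07 to 0.54), from 22, 20 and 6 UMIs in KO. For Cstb it was 0.50 (-1.83 to 2.14), from 3 UMIs in KO, and so without a readable direction.

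**Figure D4:**
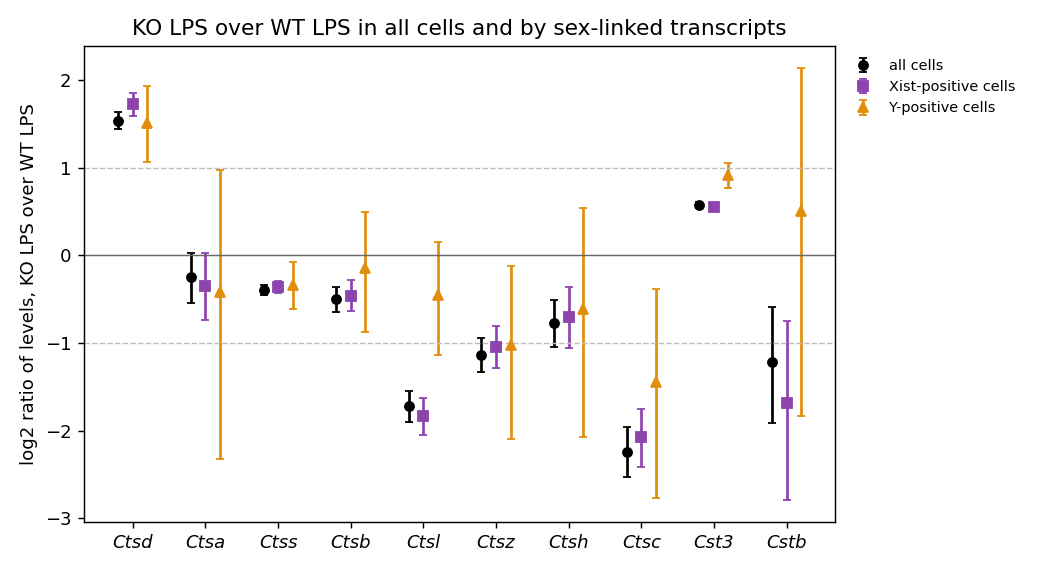
Log2 ratio of levels, KO over WT, for each gene in all cells (black), in cells with Xist and no Y-linked UMI (violet squares) and in cells with a Y-linked UMI and no Xist (orange triangles, 12 KO cells); bars are 95% intervals of counting error, and dashed lines mark 2-fold. Ctsd and Cst3 are above 0 and Ctsc, Ctsz and Ctss below 0 in all 3 sets with intervals that do not hold 0.

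Within the WT library, several of the genes were higher in cells with a larger share of inflammatory transcripts. The 1427 cells were ranked by the share of their UMIs in the inflammatory list and cut into 4 bins of nearly equal size, which are ranges of a score and not cell types. From the lowest to the highest bin, Ctsl had 1720, 2213, 2659 and 2889 CPM. Ctsc had 1077, 1322, 1335 and 1627 CPM, and Cst3 had 13636, 16384, 17296 and 17896 CPM. Ctsb and Ctsz were also higher in the highest than in the lowest bin, with 1968 against 1354 CPM and 1614 against 1153 CPM, and intervals that did not overlap. Ctss had 9570, 10642, 11361 and 10722 CPM, so its highest level was not in the highest bin. Across the thinned WT cells, Spearman's rho of the summed cathepsins was 0.203 with the inflammatory list and 0.381 with the homeostatic list. For Ctsl alone it was 0.170 and 0.142, and for Ctss 0.126 and 0.324.

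Ctsd, Ctsa and Ctsh showed no such order. In the lowest and the highest bin, Ctsd had 1242 CPM (1136 to 1356) and 1162 CPM (1074 to 1256). Ctsh had 537 and 528 CPM, and Ctsa 359 and 361 CPM. The cells of the highest bin were deeper, with a median of 1210 UMIs against 883 in the lowest, and the part of depth was not tested.

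In KO, 156 of 320 cells held no inflammatory UMI, so that the lower 2 bins are nearly all ties. Ctsl had 748, 630, 826 and 678 CPM over the KO bins, and Ctsc 270, 333, 283 and 271 CPM, with overlapping intervals. Cst3 had 21680 (20682 to 22715), 22857, 27044 (26172 to 27938) and 25432 (24346 to 26553) CPM, so that the upper 2 bins lay above the lowest, and the bin with the highest level was also the deepest, with a median of 1501 UMIs. The WT cells with the smallest inflammatory share had more Ctsl (1720 CPM, 1594 to 1853) and more Ctsc (1077 CPM, 978 to 1183) than KO cells as a whole, and less Cst3. The bins of the libraries are not matched, since this WT bin reaches an inflammatory share of 0.48% and holds 28 of 357 cells without an inflammatory UMI. The part of the inflammatory share in the difference between libraries was not tested. That bin also had less Ctsd (1242 CPM) than any bin of KO, the lowest of which was at 3291 CPM.

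**Figure D5:**
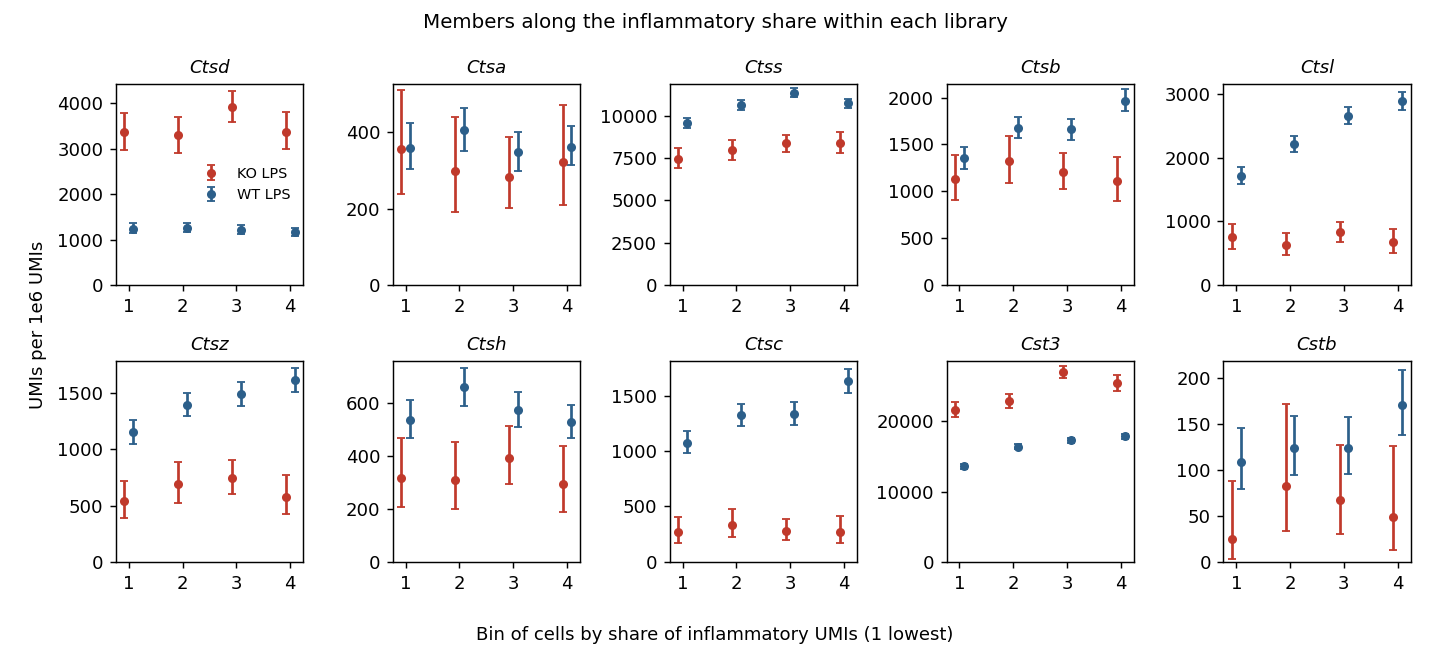
Level of each gene in CPM (vertical axes start at 0 and differ between panels) in 4 bins of the cells of KO (red) and WT (blue), ranked within each library by the share of inflammatory UMIs from 1 (lowest) to 4 (highest); bars are 95% Poisson intervals. In WT, Ctsl climbs from 1720 to 2889 CPM while Ctsd stays between 1162 and 1265 CPM.

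Across the thinned cells of a library, the most abundant protease and the most abundant inhibitor went together. Spearman's rho of Ctss with Cst3 was 0.465 over 320 KO cells and 0.431 over 1427 WT cells, and that of all cathepsins with all cystatins was 0.487 and 0.493. Cst3 followed the homeostatic microglial list with rho of 0.404 and 0.377. The rho of Ctsl with Cst3 was 0.149 in KO and 0.283 in WT. The other pairs of members were at or below 0.225 in both libraries, which in counts this sparse is no finding. All these cells share a library and a fixed total of 500 UMIs, so the values are given as a description. Of 55 genes with at least 500 UMIs in each library, those most alike to the summed cathepsins by mean rho included C1qb (0.369), B2m (0.339), C1qc (0.285) and Tmsb4x (0.281). Those most alike to Cst3 were B2m (0.397), C1qb (0.368), Tmsb4x (0.360), C1qa (0.345) and Actb (0.325).

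Few of the other cathepsins and lysosomal proteases could be compared. Of 9 listed genes, 7 were in the tables and 4 reached 20 UMIs, and their median log2 ratio was 0.44. By interval 2 were higher (Tpp1 and Lgmn), against 19.6% of all genes, and those of Ctsf and Ctso held 1. Lgmn had 1626 CPM in KO and 1191 CPM in WT (ratio 1.37, 1.25 to 1.49), and Ctso had a ratio of 1.33 (0.813 to 2.10). Tpp1, a serine tripeptidyl peptidase, was highest, with 223 CPM in KO and 106 CPM in WT (ratio 2.11, 1.62 to 2.73). Ctsf, a further cysteine cathepsin, was lowest, with 70.8 and 55.8 CPM and a ratio (1.27, 0.801 to 1.95) whose interval held 1. Of 17 genes listed as other inhibitors of cathepsins, 10 were among the counted genes and 3 reached 20 UMIs. Whether each of them blocks a cathepsin was not tested here. Ctla2b, which resembles the propeptide of a cathepsin, was lowest, with 18.4 CPM in KO and 77.4 CPM in WT (ratio 0.237, 0.0938 to 0.500). Serpinb9 was highest, from 8 UMIs in KO and 19 in WT, with a ratio of 2.20 (0.832 to 5.25) that held 1. The cystatin gene Cst7 had 7 and 65 UMIs, and its ratio of 0.562 (0.217 to 1.22) held 1 as well.

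Of 18 genes for sorting and for partners of lysosomal enzymes, 17 could be compared. By interval 4 were higher and 4 lower, against 19.6% and 18.7% of all genes, and the intervals of 9 held 1. At least 2-fold higher and lower were 2 each, near the shares of all genes. The lowest was Cd74, the invariant chain that Ctss trims, with 4 UMIs in KO and 306 in WT (10.5 and 154 CPM, ratio 0.0682, 0.0185 to 0.176). M6pr, a receptor that carries newly made cathepsins to lysosomes, was the other gene at least 2-fold lower, with 199 and 431 CPM (ratio 0.463, 0.361 to 0.585). At least 2-fold higher were Tfeb, with 68.2 and 21.6 CPM (ratio 3.15, 1.86 to 5.25), and Mitf, with 83.9 and 32.2 CPM (ratio 2.61, 1.65 to 4.05). Both encode transcription factors of a family that switches on lysosomal genes, and the related Tfe3 had a ratio of 1.14 (0.832 to 1.54). Lgmn, Ctso, Cst7, M6pr, Mitf and Tfe3 were named after their values were seen. Of 15 genes of the proton pump that acidifies lysosomes, 14 could be compared, with 1 higher and 4 lower by interval (19.6% and 18.7% of all genes) and a median log2 ratio of -0.20. Atp6v1c1 was highest (ratio 1.46, 1.05 to 1.99) and Atp6v0e lowest (ratio 0.423, 0.267 to 0.642).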

How the data were processed

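Raw counts were deposited by the authors as 1 table of UMIs per gene and barcode for each library, without normalisation and not filtered to cells. The submitters' processing notes name STAR, bcl2fastq 2.0 and the builds mm9 and mm10. The version of STAR, the annotation, the use of strand and which build applies are not given in the sources used here. Missing values, 5616 genes in KO LPS and 3036 in WT LPS, were read as 0.

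Groups follow the genotype labels. Cells were barcodes with at least 500 UMIs and 100 genes, and doublets were left in. UMIs were summed over cells and given per 1e6 UMIs (CPM). A UMI marks a transcript molecule at its 3' end, so levels were not scaled by length. Intervals (95%) are exact Poisson for levels, exact conditional binomial for ratios, exact Clopper-Pearson for shares and log-normal for ratios of summed UMIs. Cells of 1 library are not replicates, so MAST, which the study used, was left out. Calculations used Python 3.11.15, numpy 2.4.6, scipy 1.17.1 and pandas 2.3.3 and were tested on simulated data.

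The genes, lists and tests were chosen with earlier results of these data known. Named besides the 10 genes are Park7, the highest and lowest gene of each pathway list with at least 20 UMIs, and the 5 genes most alike to the cathepsins and to Cst3, of which 1 is not reported here. Lgmn, Ctso, Cst7, M6pr, Mitf and Tfe3 were added after their values were seen. Markers at 0 and genes that overlap the 3' ends of the 10 are also named, outside that rule and after their values were seen. Positions are GRCm39 (GENCODE vM39), found by symbol. The alternatives were other limits on cells, thinning, TMM scaling, leaving out mitochondrial, ribosomal protein and Malat1 UMIs, cells by sex-linked transcripts, and leaving out the deepest cells, cells with markers of other types, or the 3 cells with most UMIs of the 10 genes.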

Additional observations from a re-analysis of the deposited data

Results flagged for a closer look

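Some of the genes had a higher level in KO than in WT outside the cells, in the barcodes that did not reach 500 UMIs and 100 genes, which the levels in cells do not use. In these 9679 KO barcodes (303433 UMIs) and 8572 WT barcodes (1074784 UMIs), the ratio of KO over WT was 4.54 for Ctsd (4.14 to 4.97) and 3.21 for Cst3 (3.10 to 3.32), both larger than in cells. It was 1.27 for Ctsb (1.12 to 1.43), opposite in direction to cells, and 1.87 for Ctsa (1.46 to 2.37), whose interval in cells held 1. Part of these barcodes enter the alternative without a minimum of UMIs. The cause was not tested.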

How the results depend on the processing

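Over the alternatives run, the summed cathepsins stayed lower in KO, the summed cystatins higher and the ratio of cathepsins to cystatins lower, with log2 ratios of -0.38, 0.57 and -0.95 in all cells. Without a minimum of UMIs these were -0.28, 0.76 and -1.04, and in cells with a Y-linked UMI and no Xist (12 in KO) -0.20, 0.91 and -1.11. TMM scaling gave -0.60 and 0.35 for the sums, by its own construction without effect on their ratio. Without mitochondrial, ribosomal protein and Malat1 UMIs the cystatins were at 0.54, and in cells with Xist and no Y-linked UMI the ratio was at -0.89. In cells with fewer than 1000 UMIs, an alternative chosen after seeing the data, the cystatins were at 0.71 and the ratio at -1.07. Of 110 recomputed log2 ratios of single genes, 88 stayed within the counting interval of all cells, 21 left it, and 1 changed sign, Cstb in cells with a Y-linked UMI (0.50). Of 20 recomputed differences in shares of cells, 10 stayed within it and 9 left it, and 1 changed sign, Cst3 in cells of at least 1000 UMIs thinned to 1000 (-0.026 percentage points, -3.09 to 1.06). The causes were not tested. No paired analysis was possible because each genotype has 1 library, and for the same reason no replicate could be left out. Depth limits Cstb (22 UMIs in KO), whose interval held 0, as did that of Ctsa, in cells thinned to 500 UMIs and in cells with fewer than 1000 UMIs.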
